A study of Homo sapiens with 8 samples.

Results

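The genes described here are 3 connexin genes (GJA1, GJB2 and GJC1), the pannexin gene PANX1 and the protocadherin gene PCDH7, which were chosen by name as genes of the gap junctions that carcinoma cells form with astrocytes. They are 5 of the 18239 genes named on the arrays, and all of their probe sets were taken, 17 of 49293. The set was proposed with values from these same arrays in view, and which values played a part is not recorded. All values of the 5 genes are therefore given as a description, and nothing is supported with them.

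Connexins are membrane proteins that assemble into channels, and channels of adjacent cells dock into a gap junction through which ions and small molecules pass directly from cytoplasm to cytoplasm. Pannexins are related in fold and open single-membrane channels that release ATP. In published work on brain metastasis, PCDH7, a cell-surface adhesion protein of the protocadherin family, helps breast and lung carcinoma cells to join astrocytes through gap junctions made of the GJA1 product. The dinucleotide cGAMP then passes to the astrocyte, which answers with interferon and TNF.

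The study used 8 arrays of total RNA from cultured breast cancer cells labelled 231BrM and SKBrM3, names that in published work stand for brain-seeking derivatives of the lines MDA-MB-231 and SKBR3. All cells hold an inducible short hairpin against MET that doxycycline switches on. MET is the receptor tyrosine kinase for hepatocyte growth factor. The groups were 231BrM with doxycycline, 231BrM without it, SKBrM3 with doxycycline and SKBrM3 without it, with 2 arrays each. Doxycycline was given for 48 h at 100 ng, with no volume stated, and every group held the hairpin, so an effect of the drug itself and an effect of the hairpin cannot be told apart. No sample is labelled as astrocytes or as a co-culture. Nothing in the labels says whether the replicates are separate cultures, and p-values then cover only the spread from array to array, which may be technical.

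MET, the target of the hairpin, had log2 values of 5.85 and 5.35 in 231BrM with doxycycline, against 9.45 and 9.26 without it. In SKBrM3 it had 5.76 and 5.71 with doxycycline, against 9.25 and 9.20 without it. The labels of treatment thus match the target. The label SKBrM3 does not match the markers of SKBR3: ERBB2, which is amplified in that line, averaged 6.81 in 231BrM controls and 6.71 in SKBrM3 controls. VIM, a mesenchymal filament gene, averaged 12.89 in 231BrM controls and 12.75 in SKBrM3 controls. Of 11 MDA-MB-231 markers, 2 were higher by over 1 log2 unit in 231BrM controls: SPARC averaged 6.95 in 231BrM controls and 4.21 in SKBrM3 controls, and CDH11 averaged 7.82 in 231BrM controls and 4.13 in SKBrM3 controls. The epithelial cadherin gene CDH1 stayed under the level needed for testing in both, and is not counted for or against the label. Of 15 SKBR3 markers on the arrays, 11 passed the level for testing. Among these 11, only FOXA1 was higher by over 1 log2 unit in SKBrM3 controls, while KRT7, KRT8 and KRT19 were lower by more than that. The arrays are called by their label below, and comparisons between the lines compare cells so labelled. On 1 array, replicate 1 of 231BrM with doxycycline, the actin control probe sets had 3′ signal 1.24 log2 units over 5′ signal, against 0.46 to 0.59 on the other 7 arrays. Leaving out either array of that group leaves 1 array in it, and raised the calls for doxycycline over the whole table in both lines. In 231BrM the rise was much larger without replicate 2, which leaves the array with raised 3′ signal alone in its group. A group of 1 array adds nothing to the estimate of the spread, so these fits cannot show what that array does. The cause of the rise was not tested. Among the 5 genes, the 231BrM doxycycline effects that replicate 1 moves most are given with and without it.

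Values are on the log2 scale, where 1 unit is a doubling of signal. A probe set was tested where 2 or more arrays had a value above 4.41, which is the 40th percentile over all arrays. Of the 17 probe sets, 8 were tested: 2 of 4 for GJA1, 2 of 3 for GJB2, none of 3 for GJC1, 2 of 2 for PANX1 and 2 of 5 for PCDH7. Low values have no measured background, so the other 9 are given as values only. Levels of different probe sets are not set against each other.

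**Figure D1:**
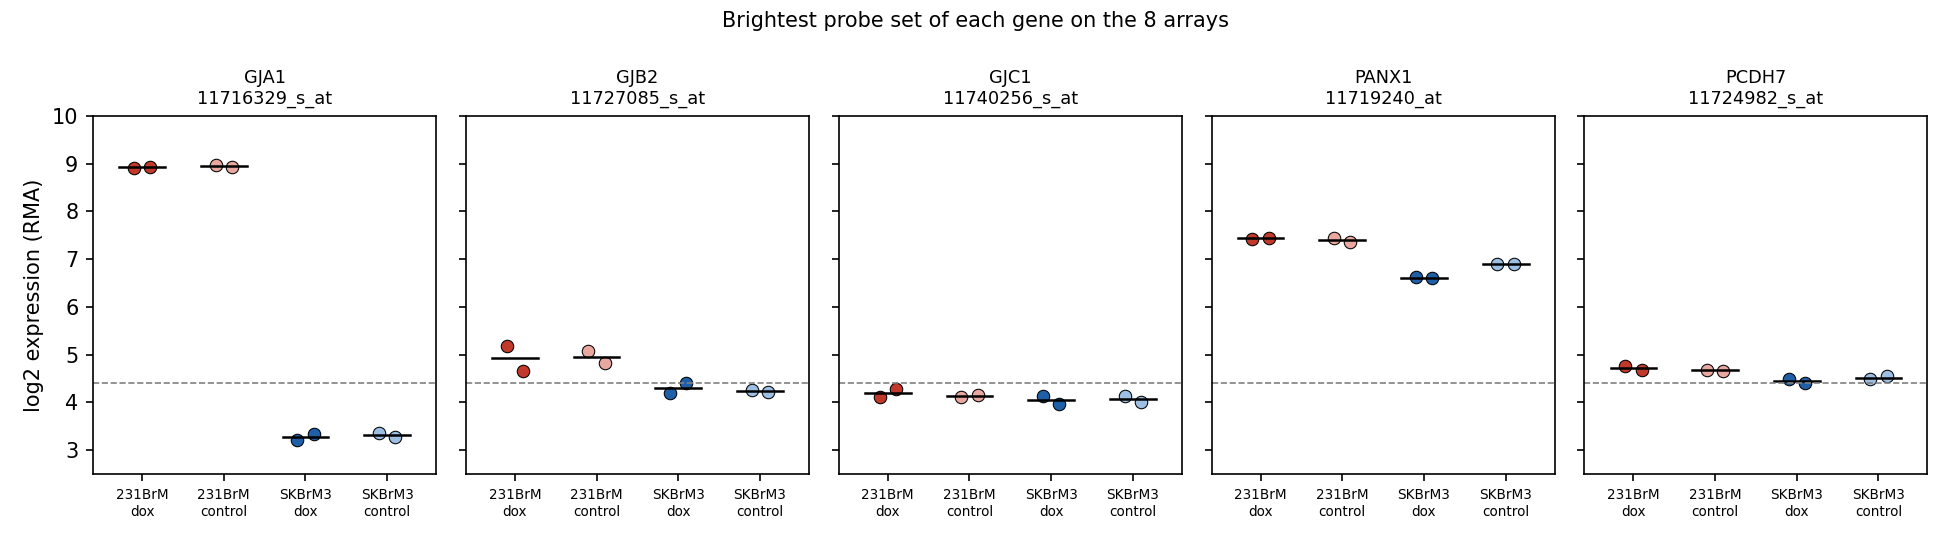
Log2 expression (y axis) of the probe set with the highest mean of each of the 5 genes, by group (x axis). Points are arrays, bars are means of 2 arrays and the dashed line is the level needed for testing, 4.41. GJA1 lies between 8.91 and 8.98 on the 231BrM arrays and between 3.20 and 3.35 on the SKBrM3 arrays, while its arrays with and without doxycycline overlap.

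GJA1 encodes gap junction protein alpha 1, the connexin that astrocytes also make. By its probe set 11716329_s_at it was present at a high level in 231BrM and at the bottom of the range in SKBrM3. The values were 8.91 and 8.94 in 231BrM with doxycycline, against 8.98 and 8.94 without it. In SKBrM3 they were 3.20 and 3.33 with doxycycline, against 3.35 and 3.26 without it. The 4 arrays of one line lie far from the 4 of the other, and within each line the arrays with and without doxycycline overlap. Its percentile among the probe sets of the same array was 90.0 to 90.7 in 231BrM and 2.71 to 6.52 in SKBrM3.

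Without doxycycline the difference between 231BrM and SKBrM3 for this probe set was 5.65 ± 0.08 (standard error, 2 arrays each), a 50.3-fold higher signal in 231BrM. With doxycycline it was 5.66 ± 0.08, or 50.5-fold. Ordered by difference, it was number 9 from the top of 31146 probe sets without doxycycline and number 11 with it. It passed the level for testing through the 231BrM arrays alone, so a difference between the lines was bound to accompany its being tested. The SKBrM3 values lie where background cannot be told from expression, so the fold is one of signal and not of transcripts.

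The other GJA1 probe sets did not show a difference of that size. Probe set 11716328_a_at had 4.60 and 5.03 in 231BrM with doxycycline, against 4.74 and 4.80 without it. The SKBrM3 values were 4.44 and 4.48 with doxycycline, against 4.07 and 4.27 without it. All 4 231BrM arrays lie above all 4 SKBrM3 arrays, but by much less: the difference between 231BrM and SKBrM3 was 0.60 ± 0.14 without doxycycline and 0.36 ± 0.14 with it. The SKBrM3 arrays with doxycycline lie above both controls, by 0.29 ± 0.14 on average.

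Probe set 11716326_a_at had 3.80 and 3.98 in 231BrM with doxycycline, against 4.03 and 3.86 without it, and 3.73 and 3.89 in SKBrM3 with doxycycline, against 3.66 and 3.74 without it. Probe set 11716327_x_at had 3.55 and 3.75 in 231BrM with doxycycline, against 3.77 and 3.79 without it, and 3.46 and 3.43 in SKBrM3 with doxycycline, against 3.58 and 3.58 without it. Both stay under the level for testing on all 8 arrays. Between lines without doxycycline they differ by 0.24 and 0.20, with 231BrM higher.

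The 4 GJA1 probe sets therefore give line differences that span 5.45 log2 units. Of 3857 genes with at least 4 probe sets, 2 span as much or more, GJA1 among them, and the median gene spans 0.33. The suffixes s and x both mark probes that may match several transcripts or other genes. A GJA1 pseudogene, GJA1P1, is listed in the RefSeq gene table. Which transcripts each probe set reads was not tested, since probe sequences were not used here.

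**Figure D2:**
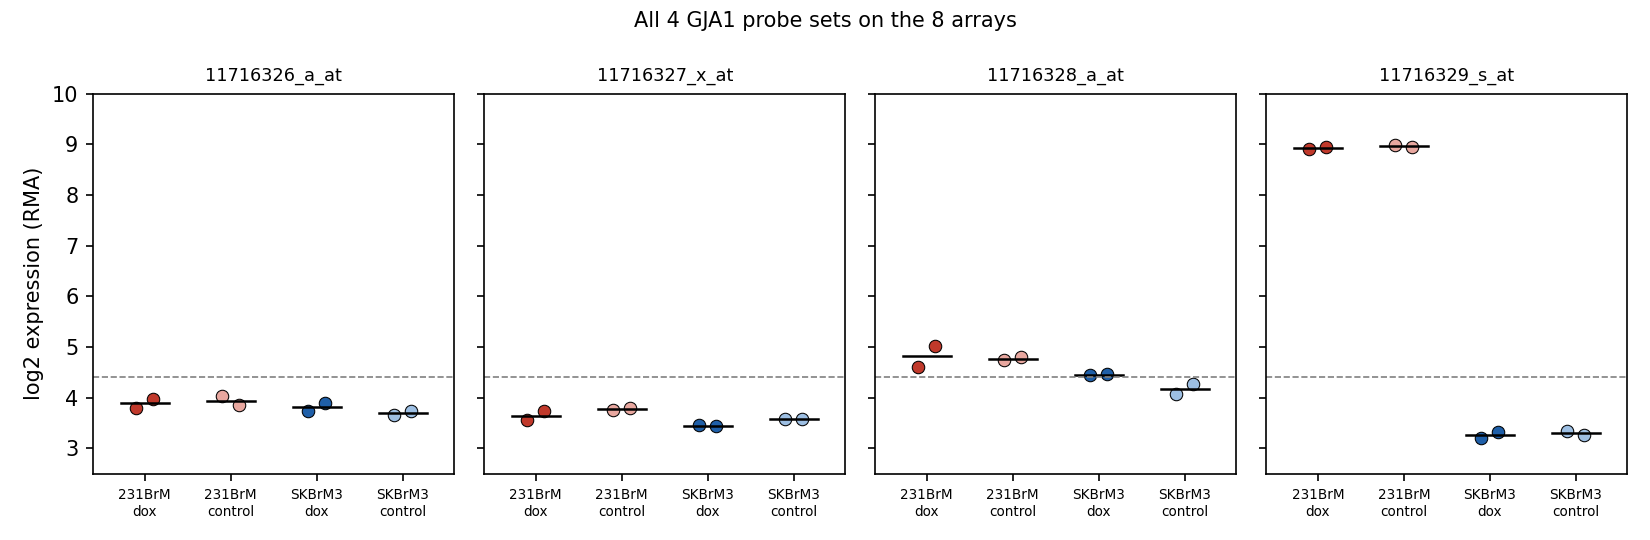
Log2 expression (y axis) of each of the 4 GJA1 probe sets by group (x axis), with points for arrays, bars for means of 2 arrays and a dashed line at the level needed for testing, 4.41. Only 11716329_s_at sets the lines apart by over 5 log2 units, and the other 3 lie between 3.43 and 5.03 on all arrays.

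GJB2 encodes gap junction protein beta 2, the connexin of the inner ear and skin epithelium, known for its part in inherited deafness. Probe set 11727085_s_at had 5.19 and 4.66 in 231BrM with doxycycline, against 5.08 and 4.82 without it. SKBrM3 arrays gave 4.19 and 4.41 with doxycycline, against 4.26 and 4.22 without it. The 231BrM arrays all lie above the SKBrM3 arrays, and doxycycline does not separate arrays within either line.

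Probe set 11727084_at had 5.02 and 4.32 in 231BrM with doxycycline, against 4.58 and 4.58 without it. In SKBrM3 it had 3.996 and 3.988 with doxycycline, against 3.92 and 3.995 without it. The 231BrM arrays again lie above the SKBrM3 arrays, and the widest gap between replicates is in 231BrM with doxycycline, where replicate 1, the array with raised 3′ signal, is the higher. Between the lines the difference without doxycycline was 0.62 ± 0.20 for this probe set and 0.71 ± 0.18 for 11727085_s_at. With doxycycline it was 0.68 ± 0.20 for 11727084_at and 0.63 ± 0.18 for 11727085_s_at. Both passed the level for testing through the 231BrM arrays alone.

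The remaining GJB2 probe set, 11748025_s_at, was under the level for testing, with 4.40 and 4.37 in 231BrM with doxycycline, against 4.23 and 4.30 without it. The SKBrM3 values were 4.10 and 4.24 with doxycycline, against 4.19 and 4.09 without it. The 231BrM arrays with doxycycline both lie above their controls here, by 0.12 on average, while the SKBrM3 groups overlap.

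GJC1 encodes gap junction protein gamma 1, a connexin of the heart's conduction tissue and of smooth muscle. None of its 3 probe sets reached the level for testing. Probe set 11740256_s_at had 4.12 and 4.28 in 231BrM with doxycycline, against 4.10 and 4.14 without it, and 4.13 and 3.97 in SKBrM3 with doxycycline, against 4.14 and 4.0 without it. The 8 values run from 3.97 to 4.28, and no group stands apart.

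For the other GJC1 probe sets the arrays separate by doxycycline, in opposite directions in the lines. Probe set 11754438_x_at had 4.03 and 4.07 in 231BrM with doxycycline, against 3.83 and 3.85 without it, and 3.93 and 3.85 in SKBrM3 with doxycycline, against 3.97 and 4.04 without it. Probe set 11753126_s_at had 3.95 and 3.91 in 231BrM with doxycycline, against 3.88 and 3.73 without it, and 3.93 and 3.89 in SKBrM3 with doxycycline, against 3.94 and 4.07 without it. In both, doxycycline arrays lie above controls in 231BrM and below them in SKBrM3. The shifts are no larger than 0.21 in either line and lie in a range with no measured background. How many of all probe sets separate in this way was not counted, so the pattern is not read as a result about GJC1.

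PANX1 encodes pannexin 1, a channel that lets ATP out of the cell and that is opened by caspase cleavage or by mechanical strain. It was expressed in both lines, and both of its probe sets were tested. Probe set 11719240_at had 7.43 and 7.44 in 231BrM with doxycycline, against 7.45 and 7.35 without it. SKBrM3 arrays gave 6.62 and 6.60 with doxycycline, against 6.89 and 6.90 without it. The SKBrM3 arrays with doxycycline both lie below their controls, while the 231BrM groups overlap.

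Probe set 11719239_at had 6.67 and 7.06 in 231BrM with doxycycline, against 7.16 and 7.30 without it. In SKBrM3 it had 6.65 and 6.71 with doxycycline, against 6.97 and 6.91 without it. Here the arrays with doxycycline lie below the controls in both lines, and in 231BrM the array with raised 3′ signal is the lowest. The PANX1 probe sets thus differ in 231BrM, where only 11719239_at shows a gap between the groups.

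The doxycycline effect on 11719240_at was 0.03 in 231BrM (95% interval -0.14 to 0.21) and -0.29 in SKBrM3 (-0.46 to -0.11). On 11719239_at it was -0.37 in 231BrM (-0.68 to -0.06) and -0.26 in SKBrM3 (-0.57 to 0.05). Between the lines, 11719240_at was higher in 231BrM by 0.50 ± 0.07 without doxycycline and by 0.82 ± 0.07 with it. For 11719239_at the corresponding differences were 0.29 ± 0.13 and 0.18 ± 0.13.

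PCDH7 belongs to the delta protocadherins, adhesion proteins whose cytoplasmic tails include forms that bind the phosphatase subunit encoded by PPP1CA. All of its 5 probe sets were low in every group. Probe set 11724982_s_at had 4.76 and 4.67 in 231BrM with doxycycline, against 4.68 and 4.66 without it. The SKBrM3 values were 4.49 and 4.41 with doxycycline, against 4.49 and 4.54 without it. The lines do not overlap, but the gap is small: the difference was 0.15 ± 0.08 without doxycycline and 0.27 ± 0.08 with it.

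Probe set 11724981_at had 4.56 and 4.56 in 231BrM with doxycycline, against 4.59 and 4.50 without it. SKBrM3 arrays gave 4.36 and 4.44 with doxycycline, against 4.48 and 4.69 without it. The SKBrM3 controls lie above the SKBrM3 arrays with doxycycline and overlap the 231BrM arrays. Between the lines it differed by -0.04 ± 0.09 without doxycycline and by 0.16 ± 0.09 with it.

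The other PCDH7 probe sets were under the level for testing. Probe set 11724983_at had 4.39 and 4.08 in 231BrM with doxycycline, against 4.06 and 4.10 without it, and 3.71 and 3.93 in SKBrM3 with doxycycline, against 3.84 and 3.67 without it. All its 231BrM values lie above all its SKBrM3 values. Probe set 11737384_at had 3.81 and 3.63 in 231BrM with doxycycline, against 3.83 and 3.67 without it, and 3.61 and 3.49 in SKBrM3 with doxycycline, against 3.50 and 3.47 without it. Probe set 11741722_at had 3.41 and 3.36 in 231BrM with doxycycline, against 3.23 and 3.19 without it, and 3.30 and 3.32 in SKBrM3 with doxycycline, against 3.25 and 3.28 without it. In this last one the arrays with doxycycline lie above the controls in both lines, at values near the bottom of the range.

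The doxycycline comparison asks whether loss of MET over 48 h was accompanied by a shift of these genes. No tested probe set of the 5 genes was called at an adjusted p under 0.05 in either line (limma with Benjamini-Hochberg adjustment over all 31146 probe sets). In 231BrM, 0.0578% of all probe sets were called, and 1 of the 8, PANX1 11719239_at, had an unadjusted p under 0.05, where 8.06% of all probe sets did. In SKBrM3, 1.47% of all probe sets were called, and 1 of the 8, PANX1 11719240_at, had an unadjusted p under 0.05, where 17.2% of all did. Their adjusted p-values in limma were 0.586 and 0.122. PANX1 11719240_at was called in SKBrM3 when arrays were weighted by quality (adjusted p = 0.0347, limma) or when either 231BrM doxycycline array was left out (0.0463 both times). Without 231BrM doxycycline replicate 2, which leaves the array with raised 3′ signal alone in its group, PANX1 11719239_at at -0.57 and GJB2 11727084_at at 0.44 were called in 231BrM (adjusted p = 0.00721 and 0.0128, limma). Without replicate 1, the array with raised 3′ signal, PANX1 11719239_at was at -0.17 and GJB2 11727084_at at -0.27, and neither was called (adjusted p = 0.613 and 0.347, limma).

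For the GJA1 probe set 11716329_s_at, doxycycline gave -0.04 in both lines, with 95% intervals from -0.23 to 0.16 in 231BrM and from -0.23 to 0.15 in SKBrM3. For GJB2 11727084_at the intervals ran from -0.38 to 0.55 in 231BrM and from -0.44 to 0.50 in SKBrM3. Without 231BrM doxycycline replicate 1, GJB2 11727085_s_at moved from -0.03 to -0.29 in 231BrM, and GJA1 11716328_a_at from 0.04 to 0.26. For PCDH7, 11724981_at gave 0.02 in 231BrM (-0.20 to 0.24) and -0.19 in SKBrM3 (-0.41 to 0.03), and 11724982_s_at gave 0.04 (-0.14 to 0.23) and -0.07 (-0.25 to 0.12). A p that misses the threshold does not show that these genes stayed level, and the intervals give the sizes that 2 arrays a group leave possible.

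**Figure D3:**
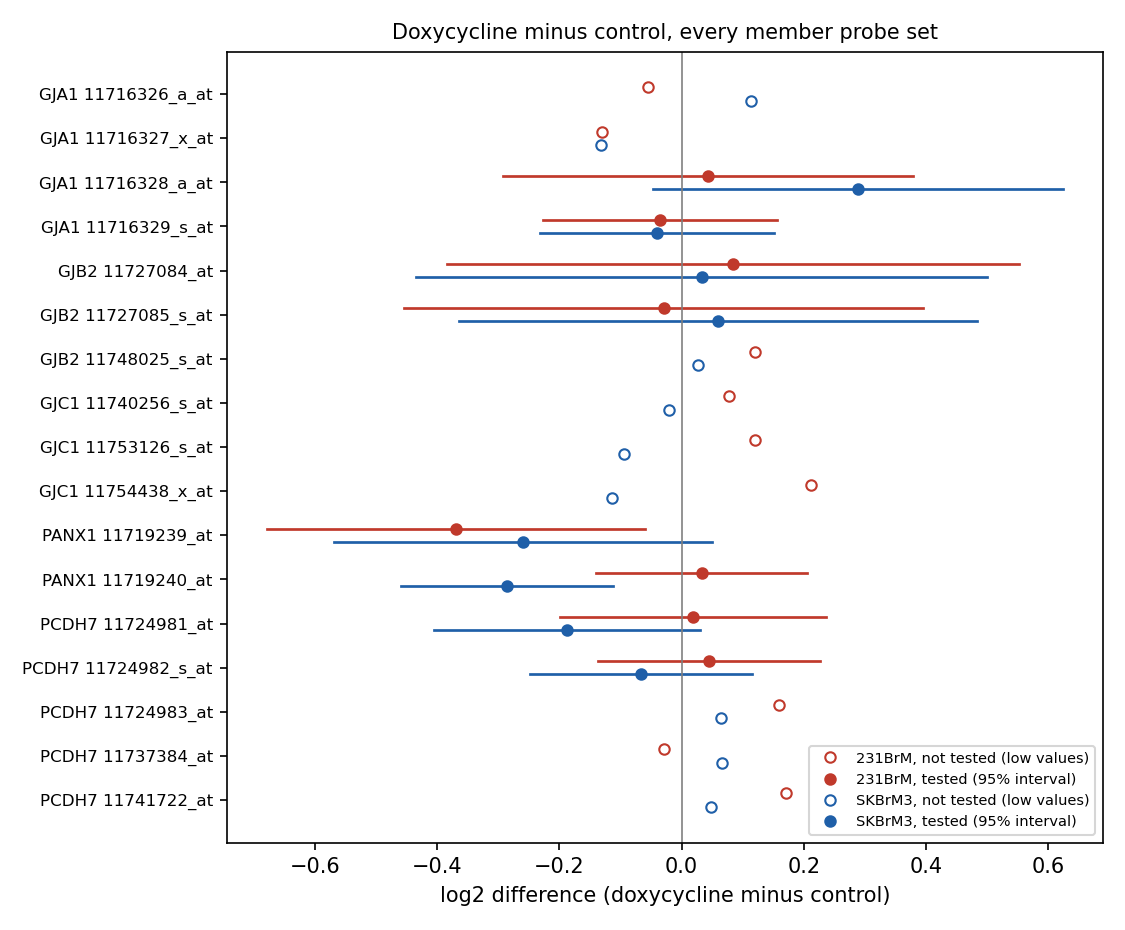
Doxycycline minus control difference in log2 expression (x axis) for each of the 17 probe sets (y axis) in 231BrM and in SKBrM3, with 95% intervals from limma for the 8 tested and open points for the others. All intervals but those of PANX1 11719239_at in 231BrM and PANX1 11719240_at in SKBrM3 include 0, and neither of those was called after adjustment.

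The difference of the doxycycline effects between 231BrM and SKBrM3 was 0.32 ± 0.10 for PANX1 11719240_at, the largest of the 8 tested probe sets, with an adjusted p of 0.454 in limma. None of the 8 probe sets was called, 1 had an unadjusted p under 0.05, and no probe set on the whole array was called (0.0%, with 9.4% at an unadjusted p under 0.05). For GJA1 11716329_s_at the difference of effects was 0.00 ± 0.11, and for PCDH7 it was 0.21 ± 0.13 and 0.11 ± 0.11.

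The comparison of 231BrM with SKBrM3 gave more separation. Of the 8 tested probe sets, 5 were called without doxycycline, all higher in 231BrM, where 33.2% of all probe sets were called and 17.0% were called higher. They were both GJA1 probe sets, both GJB2 probe sets and PANX1 11719240_at. With doxycycline, 5 were again called higher, where 35.6% of all were called and 18.7% were called higher: GJA1 11716329_s_at, both GJB2 probe sets, PANX1 11719240_at and PCDH7 11724982_s_at. Several of them were tested only because 231BrM arrays were above the level, so the count is not read as a result about the set.

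**Figure D4:**
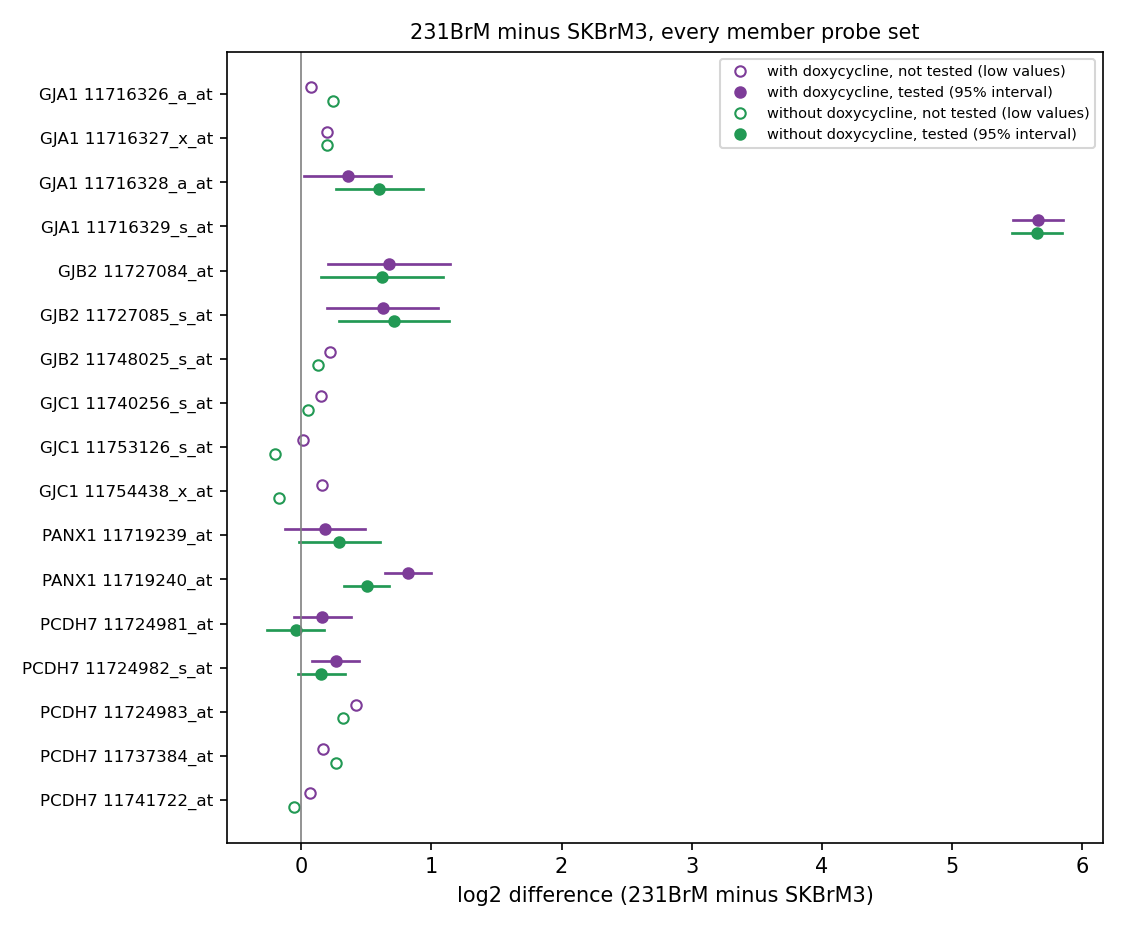
231BrM minus SKBrM3 difference in log2 expression (x axis) for each of the 17 probe sets (y axis), with and without doxycycline, with 95% intervals from limma for the 8 tested and open points for the others. GJA1 11716329_s_at lies at 5.65 and 5.66, and all other differences lie between -0.20 and 0.82.

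The calls of GJA1 11716329_s_at and of PANX1 11719240_at between the lines held under all 14 alternatives run, with differences without doxycycline from 5.61 to 5.70 and from 0.45 to 0.55. Those of the GJB2 probe sets and of GJA1 11716328_a_at did not. The alternatives reuse these same arrays. GJA1 11716329_s_at and both GJB2 probe sets were tested through 231BrM arrays alone. The counts of alternatives thus describe how calls move and are no support for a difference. Without doxycycline GJB2 11727084_at was called in 5 of 13 alternatives, GJB2 11727085_s_at in 10 of 13 and GJA1 11716328_a_at in 10 of 13. With doxycycline both GJB2 probe sets were called in 7 of 13 alternatives and PCDH7 11724982_s_at in 5 of 13. Leaving out 231BrM doxycycline replicate 1, on which 3′ signal was raised, gave differences of 0.32 for GJB2 11727084_at and 0.36 for GJB2 11727085_s_at, and leaving out replicate 2 gave 1.03 and 0.89. Without replicate 1 the calls of GJB2 11727085_s_at and PCDH7 11724982_s_at were lost, and GJA1 11716328_a_at at 0.57 and PANX1 11719239_at at 0.38 were called.

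Genes that work with connexins, pannexins and PCDH7 were taken from 8 lists of 96 genes, of which 84 were named singly on the arrays and 62 were tested, each by its probe set with the highest mean. In 231BrM none was called for doxycycline, where 0.162% of all 12999 tested genes were called, and 8 had an unadjusted p under 0.05, where 9.89% of all did. In SKBrM3, 2 were called higher and 2 lower, where 3.43% of all were called, 1.15% higher and 2.28% lower. The other 58 were not. For the difference of the effects none of the 62 was called, where 0.0231% of all were, and 6 had an unadjusted p under 0.05, where 11.2% of all did.

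Among the called genes in SKBrM3 was TBK1, the kinase downstream of the cGAMP sensor STING. It had 7.64 and 7.66 with doxycycline, against 8.03 and 8.05 without it, a difference of -0.40 (adjusted p = 0.0237, limma over all genes). The TBK1 difference in 231BrM was -0.06 and was not called. PPP1CA, the phosphatase subunit that binds PCDH7, had 10.18 and 10.15 in SKBrM3 with doxycycline, against 10.59 and 10.66 without it, a difference of -0.46 (adjusted p = 0.0276, limma). In 231BrM the PPP1CA difference was -0.36, with values of 10.08 and 9.88 with doxycycline, against 10.33 and 10.35 without it, and it was not called.

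SRC, a tyrosine kinase that phosphorylates the GJA1 product and closes its channels, had 7.64 and 7.55 in SKBrM3 with doxycycline, against 7.29 and 7.17 without it, a difference of 0.36 (adjusted p = 0.0478, limma). P2RX4, an ATP-gated ion channel, had 6.09 and 5.98 in SKBrM3 with doxycycline, against 5.48 and 5.59 without it, a difference of 0.50 (adjusted p = 0.0293, limma). The P2RX4 difference in 231BrM was 0.15 and was not called. In 231BrM, SRC lay the other way, with 6.76 and 6.77 with doxycycline, against 7.04 and 6.99 without it. The difference of the SRC effects between 231BrM and SKBrM3 was -0.61 ± 0.11, with an adjusted p of 0.196 in limma. Adjusted over all probe sets in place of 1 per gene, only TBK1 was called (adjusted p = 0.047, limma). A further probe set of each of the 4 genes differed in the same direction, by -0.49 for TBK1, -0.29 for PPP1CA, 0.21 for SRC and 0.34 for P2RX4. These 4 calls rest on few arrays: none was left when any 1 array other than the 231BrM doxycycline arrays was left out, and 9 genes were called when either of those was.

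ADORA2B, a receptor for the adenosine formed from released ATP, was named for 231BrM by its small p among genes not called. It had 10.06 and 10.09 with doxycycline, against 9.71 and 9.78 without it, a difference of 0.33 ± 0.07 that was not called (adjusted p = 0.225, limma). CCN3, a secreted protein that binds the GJA1 product, had 8.25 and 7.97 in 231BrM with doxycycline, against 7.66 and 7.65 without it, and was not called either (adjusted p = 0.389, limma).

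Between the lines without doxycycline, 20 of the 62 genes were called higher in 231BrM, 8 lower and 34 not, where 39.7% of all tested genes were called, 19.8% higher and 19.9% lower. With doxycycline the counts were 22 higher, 9 lower and 31 not, where 41.6% of all were called, 21.8% higher and 19.8% lower. The median difference over all tested genes was -0.05 without doxycycline and 0.01 with it.

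Among the other connexins, 4 of 13 on the arrays were tested and 1 was called without doxycycline. It was GJA3, a lens connexin, with a difference of 0.28 (adjusted p = 0.0231, limma) and a list median of -0.05. The differences of these 4 genes run from -0.11 to 0.28. PANX2 and PANX3 were not tested, being under the level.

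Of 20 tested connexin partners and trafficking genes, 8 were called higher in 231BrM and 1 lower, with a list median of 0.22. CCN3 had 7.66 and 7.65 in 231BrM controls, against 5.27 and 5.39 in SKBrM3 controls, a difference of 2.32 (adjusted p = 6.23e-06, limma). CSNK1D, a casein kinase that acts on the GJA1 product, was higher by 0.83. Another of its probe sets differed by -0.35, and the rest by 0.88, 0.79 and 0.72. WWP1, a ubiquitin ligase, was higher by 1.04. TJP1, a scaffold protein that binds the tail of the GJA1 product, was higher by 0.20 and not called.

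Of 3 tested delta protocadherins, the relatives of PCDH7, 1 was called without doxycycline: PCDH1 was lower in 231BrM, with a difference of -0.33. Another tested PCDH1 probe set differed by -0.02, and those under the level for testing by -0.20 and 0.05. Both tested PCDH7 partners were called lower in 231BrM, where 19.9% of all tested genes were. SET, a phosphatase inhibitor that PCDH7 is known to work with in lung cancer, differed by -0.39, and PPP1CA by -0.28. The other probe set of SET differed by -0.50 and that of PPP1CA by -0.12.

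Of the 13 tested genes of cGAMP sensing and transport, 2 were called higher in 231BrM, 1 lower and 10 not, with a list median of 0.01. LRRC8A, the obligate subunit of volume-regulated anion channels that carry cGAMP, had 9.81 and 9.82 in 231BrM controls, against 11.01 and 10.93 in SKBrM3 controls, a difference of -1.16. Its partner subunit LRRC8D had 7.75 and 7.77 in 231BrM controls, against 6.74 and 6.79 in SKBrM3 controls, a difference of 1.00, and LRRC8C was higher by 0.37. Further probe sets differed by 0.21 for LRRC8D, and by 0.37 and -0.12 for LRRC8C. The enzyme that makes cGAMP, CGAS, and its receptor STING1 both differed by 0.01 and were not called. ENPP1, which degrades cGAMP outside the cell, differed by 0.00 in its highest probe set, and by -0.14 and 0.34 in the others.

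Of 10 tested receptors and factors for interferon and TNF, 6 were called higher in 231BrM and 2 lower, with a list median of 0.30. IRF9, the DNA-binding part of the interferon-activated complex, had 7.68 and 7.58 in 231BrM controls, against 6.17 and 6.24 in SKBrM3 controls, a difference of 1.42. The receptor kinases JAK1 and TYK2 were higher by 0.73 and 0.68. Among 10 tested genes of extracellular ATP and adenosine, 3 were called higher and 1 lower. The ATP-gated channel P2RX5 was lower in 231BrM, with a difference of -1.10, while the ectoenzymes ENTPD3 and NT5E were higher by 0.91 and 0.55. The probe sets of NT5E disagreed, since the others differed by 0.28 and -0.21.

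**Figure D5:**
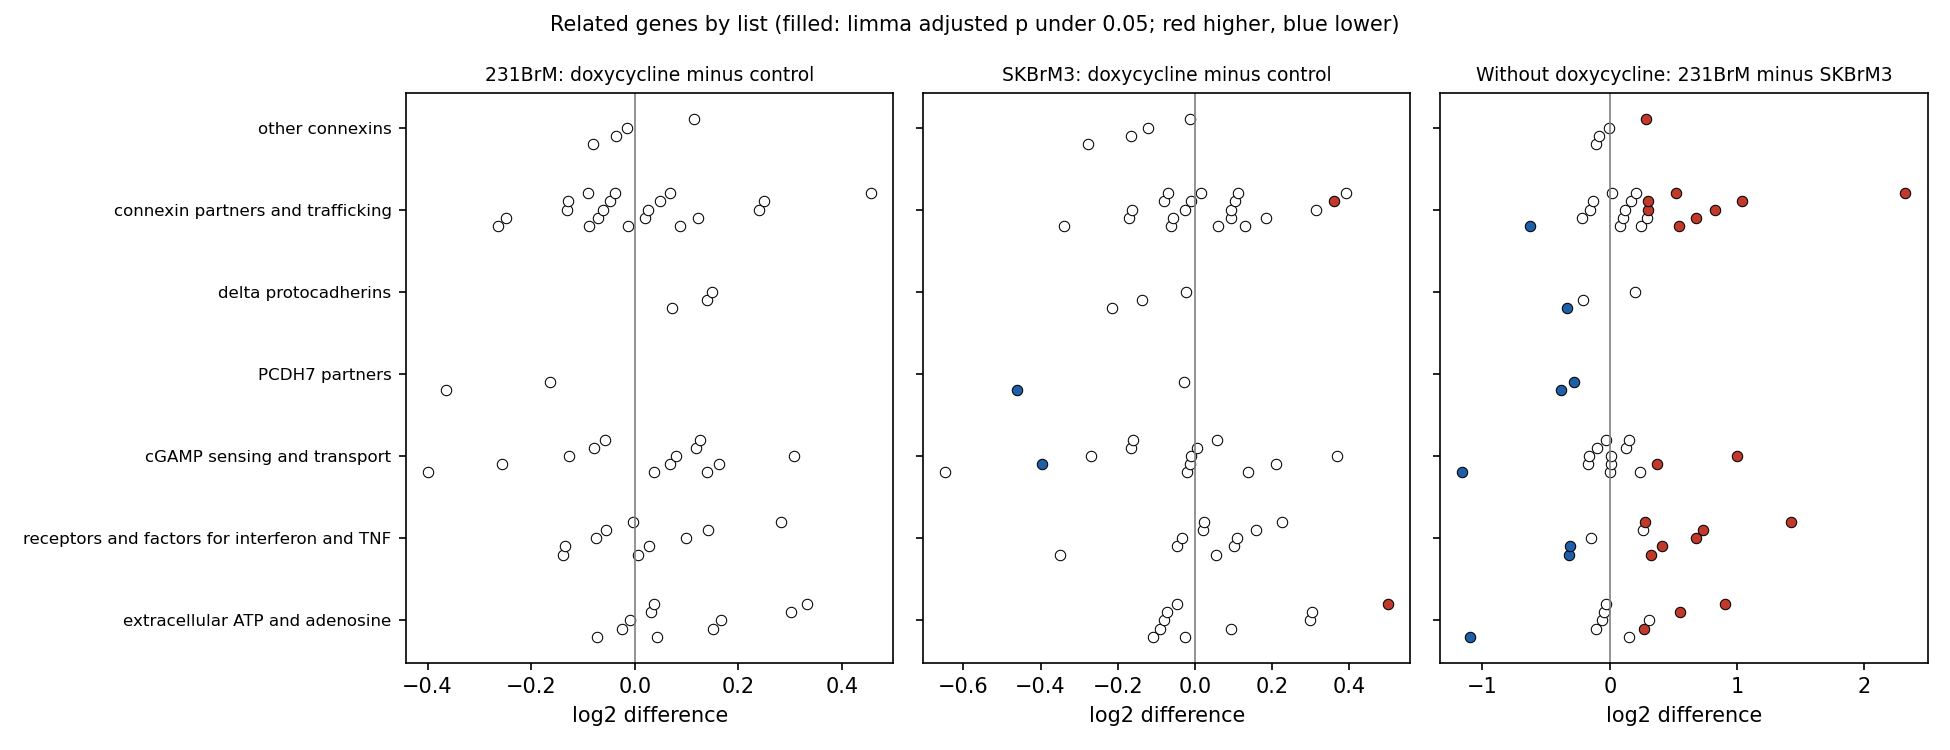
Log2 differences (x axis) of the tested genes of each list (y axis) for doxycycline in 231BrM, doxycycline in SKBrM3 and 231BrM minus SKBrM3 without doxycycline. Each point is a gene, filled where called (red higher, blue lower), and the scales of the panels differ. Fills are absent in 231BrM, number 4 in SKBrM3 and number 28 between the lines.

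For each of the 5 genes, the genes most like its highest probe set over the 8 arrays were found by Pearson's r of log2 values. For GJA1 they were ADGRF5, FSTL1 and SHISA2, with r of 1.00, 0.999 and 0.999. For GJB2 they were NGEF, RUNX2 and KCNS3, with r of 0.993 to 0.991. The nearest to PANX1 were TUBB2A, ATP2C1 and NDEL1, with r of 0.996 to 0.993, and the nearest to PCDH7 were LZTS2, GALNT5 and CD74, with r of 0.999 to 0.990. For GJC1, which was under the level for testing, they were CSRNP2, EML2 and ARHGAP31, with r of 0.973 to 0.915. The 8 points fall into the 2 lines, so these values describe the arrays and mainly order genes by how they differ between lines.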

How the data were processed

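Expression was measured on 8 Affymetrix arrays of biotin-labelled total RNA. The deposited values are log2 expression, 1 per probe set and array, which the authors computed with RMA, per the submitters' processing notes. RMA subtracts background, quantile-normalizes the arrays and summarises each probe set. Its version, the chip definition and a genome build were not given in the sources used here. Quantile normalization gives arrays nearly the same distribution (medians 4.92 to 4.97), so shifts in total RNA per cell are not visible.

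Of 49386 probe sets, 93 controls were left out. Gene names come from the platform annotation, in which 45253 probe sets name 1 gene, 1327 several and 2713 none. The symbols of 45172 were brought up to date from RefSeq by gene ID (GRCh38.p14, names only). Of the probe sets, 31146 exceeded 4.41 on at least 2 arrays and were tested. For the lists, the probe set with the highest mean stood for each gene, which gave 12999 tested genes.

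Log2 values were fitted with limma 3.58.1 in R 4.3.3 (lmFit and eBayes, 4 group means, 4 residual degrees of freedom, two-sided tests). Benjamini-Hochberg adjustment ran over all tested probe sets or genes, and adjusted p-values under 0.05 were called. Precision is limited by the number of arrays, with a median standard error of a difference of 0.106. The steps were tested on simulated data.

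The 5 genes and the lists were chosen with earlier results of these data known. Besides every probe set of the 5 genes and MET, the rule for named genes took from each list and comparison up to 3 called genes with the smallest p, or up to 2 with none called. TJP1, CGAS and STING1 between the lines, and ENPP1 there, were added for their role. The line comparison with doxycycline was added after seeing the data. Same-numbered replicates were checked for pairing: the correlation of their deviations from the group means was 0.24 in 231BrM and -0.01 in SKBrM3. No block was used, though these correlations do not settle whether replicates were paired. The replicate block run as an alternative is a term shared by both lines. Alternatives were other filters, median centring, a mean-variance trend, array weights, a replicate block, 1 line alone, the mean of a gene's probe sets, and leaving out each array.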

Additional observations from a re-analysis of the deposited data

Results flagged for a closer look

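The GJC1 probe sets 11753126_s_at and 11754438_x_at were singled out because the arrays with doxycycline lay above both controls in 231BrM and below both controls in SKBrM3. The difference of the doxycycline effects between 231BrM and SKBrM3 was 0.21 for 11753126_s_at and 0.33 for 11754438_x_at. Both lie under the level needed for testing, and the difference was not tested. The share of all probe sets that separate in this way was not counted. The remaining GJC1 probe set, 11740256_s_at, had overlapping groups in both lines. With 2 arrays a group, no array could be examined as an outlier within its group.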

How the results depend on the processing

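Counts of the 8 tested probe sets of the 5 genes that were called were 0 and 0 for doxycycline in 231BrM and SKBrM3, 0 for the difference of the effects, and 5 and 5 between the lines without and with doxycycline. With array weights they were 1 for doxycycline in SKBrM3 and 3 between the lines with doxycycline. With a stricter filter at 5.73, which tests fewer probe sets, they were 2 between the lines both without and with doxycycline. Leaving out 1 array gave 0 to 2 for doxycycline in 231BrM, 0 to 1 in SKBrM3, 0 to 0 for the difference of the effects, 2 to 6 between the lines without doxycycline and 2 to 5 with it. For the 62 list genes, doxycycline in SKBrM3 gave 4 calls, against 9 with array weights and 9 with the SKBrM3 arrays alone. Leaving out 1 array gave 0 to 9 there, 0 to 11 in 231BrM (all 11 without doxycycline replicate 2, and 0 otherwise), 0 to 2 for the difference of the effects, 17 to 35 between the lines without doxycycline and 25 to 35 with it. A group reduced to 1 array is assumed to vary like the others, and the causes were not tested. The replicate block changed no count of called probe sets of the 5 genes and gave 3 list genes for doxycycline in SKBrM3 and 27 between the lines without doxycycline, and the calls over all probe sets became 12 in 231BrM and 320 in SKBrM3, against 18 and 458. Of 551 single effects under alternatives, 507 kept their side of the threshold, 34 lost a call, 10 gained one and none that was called changed sign. Of 407 uncalled in both fits, 22 changed sign. Array weights gave 2827 calls over all probe sets for doxycycline in SKBrM3, and leaving out 231BrM doxycycline replicate 2 gave 5306 in 231BrM. Signal over background could not be judged for values near or under 4.41, which include all GJC1 probe sets and most of PCDH7.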
